A study of Mus musculus with 6 samples.

Results

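The pyruvate dehydrogenase complex and the enzymes that switch it on and off were described through 10 genes, chosen by name: the complex subunits Pdha1, Pdhb, Dlat and Pdhx, the kinases Pdk1, Pdk2, Pdk3 and Pdk4, and the phosphatases Pdp1 and Pdp2. All 10 were measured, each by 1 probe set with a single gene symbol, among 19938 genes. Expression was profiled on Affymetrix MoGene arrays from frozen skeletal muscle of 3 mice labelled transgenic (TG) and 3 labelled wild type (WT), 1 mouse per array, in a study whose title names SOCS-3 and muscle. SOCS-3 is a suppressor of cytokine signalling. The strain, age and sex of the mice, the muscle taken, what the transgene carries and what drives it are not stated by the labels. The genes were proposed with the TG minus WT differences of these same arrays in view, those of Pdp2 and Pdk4 among them, so all differences between the groups are given as a description and nothing is supported with them.

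Pyruvate dehydrogenase sits in the mitochondrial matrix and converts pyruvate, the end product of glycolysis, to acetyl-CoA for the citric acid cycle. Kinases of the Pdk family phosphorylate its E1 alpha subunit and switch the complex off, and the Pdp phosphatases remove the phosphate and switch it back on. In skeletal muscle this switch is known for setting the choice between carbohydrate and fatty acids as fuel, with more kinase in fasting and more dephosphorylated enzyme during contraction and after insulin. The arrays measure transcripts only, so neither the phosphorylation nor the activity of the complex was measured.

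Array medians ran from 5.98 to 6.04 on the log2 scale. Arrays of the same group correlated across genes at 0.9947 to 0.9959, and TG with WT arrays at 0.9943 to 0.9960. Socs3 had log2 expression of 7.12, 7.25 and 7.07 on TG arrays 1 to 3, against 7.43, 7.41 and 7.37 on WT arrays 1 to 3. Its TG values were thus the lower ones, and since the transgene's sequence is not given, they do not check the labels. With 3 arrays a group, precision is limited throughout.

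Pdp2 had the largest difference of the 10 genes and was higher on every TG array than on every WT array, by 1.45-fold on average. Pdk4 was higher on every TG array as well, by 1.12-fold, and the other 8 genes had log2 differences between -0.012 and 0.10. No gene of the 10 passed an adjusted p of 0.05 over all genes (limma, adjusted p from 0.299 to 0.995), and across all genes 1, Casp12, did, which is 0.00502%. At an unadjusted p under 0.05 there was 1 of the 10, Pdp2, where 6.75% of all genes were. Values lay above 0 for 8 of the 10 genes, with a median log2 difference of 0.063, against 43.8% of all genes above 0 and a median of -0.016. Without Pdp2 the median of the remaining 9 was 0.060.

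**Figure D1:**
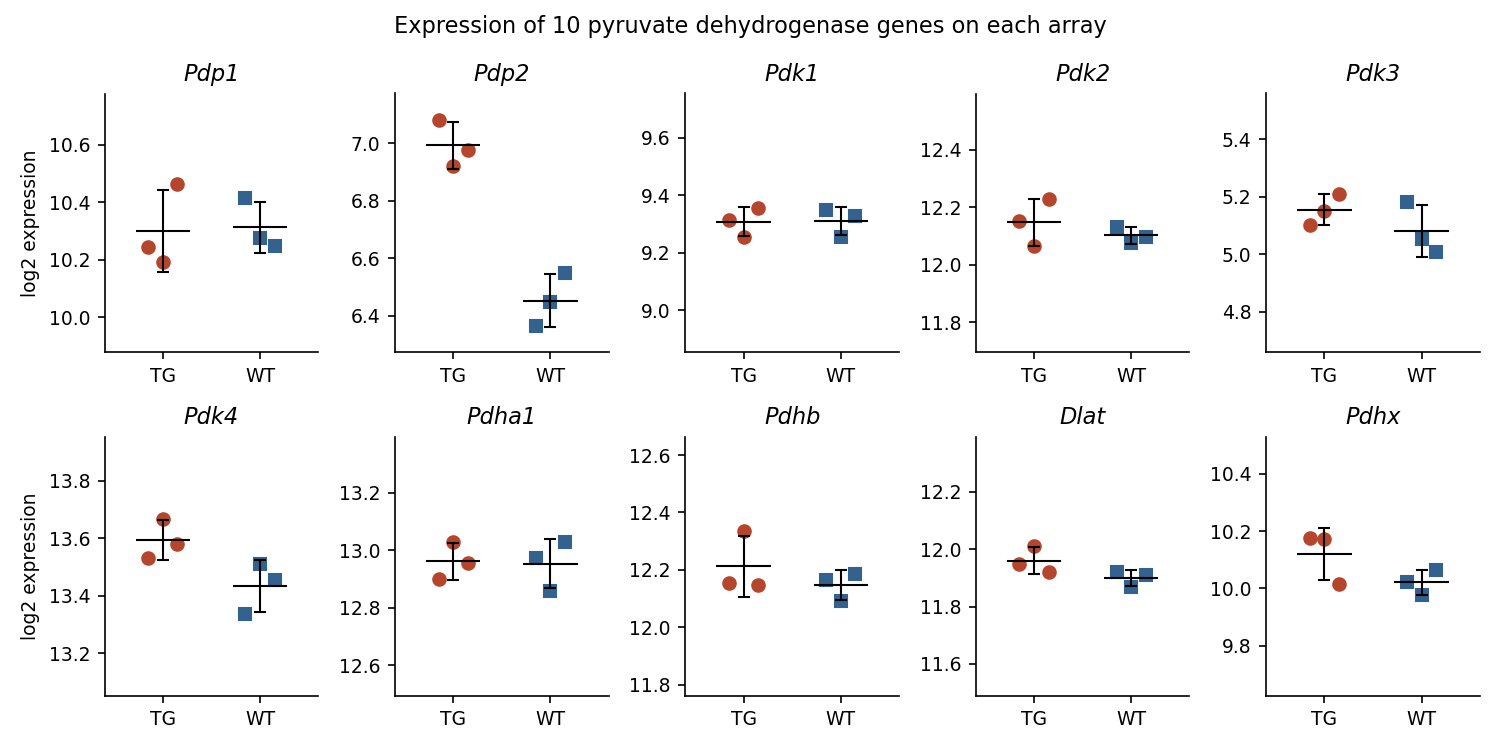
Log2 expression of each gene on each array (vertical axis, each panel spanning the same log2 range around its own values), with TG as circles and WT as squares, horizontal lines for the mean and bars for the SD (n = 3 each). The 3 Pdp2 values in TG, 6.92 to 7.08, lie clear of the 3 in WT, 6.36 to 6.55, while in most other panels the groups share their range.

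The 2 phosphatase genes had unlike values in this comparison. Pdp2 encodes a catalytic phosphatase subunit that is known in rat from liver and fat and, unlike its relative, is not stimulated by calcium. It had log2 expression of 7.08, 6.92 and 6.98 on TG arrays 1 to 3, against 6.36, 6.45 and 6.55 on WT arrays 1 to 3. The lowest TG array stood 0.37 above the highest WT array, so the groups did not overlap. The means were 6.99 ± 0.08 in TG muscle and 6.45 ± 0.09 in WT muscle (SD, n = 3 each), which is a TG minus WT log2 difference of 0.54 (SE 0.08). Leaving out any 1 array gave differences of 0.50 to 0.59, and the gap between the groups was 0.40 with quantile normalization and 0.41 with the arrays set to a common median.

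Pdp1 encodes the calcium-stimulated phosphatase subunit that prevails in muscle mitochondria. It had log2 expression of 10.24, 10.19 and 10.46 on the TG arrays, against 10.41, 10.28 and 10.25 on the WT arrays. Both groups covered much the same range, with TG array 3 highest and TG array 2 lowest. The difference was -0.012 (SE 0.093, 95% interval -0.23 to 0.20). The contrast between the 2 genes was not tested because Pdp2 was chosen for its value. The sign of the Pdp1 difference turned with a common array median (0.0074) and without TG array 1, TG array 2 or WT array 1 (0.016, 0.042 and 0.038).

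Among the kinases, Pdk4 had the largest difference. Pdk4 is the isoform best known for its induction in muscle by fasting, glucocorticoids and fatty acids, and it is a standard target of PPAR and FOXO factors. Its log2 expression was 13.53, 13.67 and 13.58 on TG arrays 1 to 3, against 13.34, 13.51 and 13.45 on WT arrays 1 to 3. The groups did not overlap, but the lowest TG array and the highest WT array were only 0.020 apart, and with quantile normalization they tied. The difference was 0.16 (SE 0.08), with 13.59 ± 0.07 in TG muscle and 13.43 ± 0.09 in WT muscle (SD, n = 3 each). It ranged from 0.11 without WT array 1, the array with the lowest value, to 0.20 without WT array 2.

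Pdk2 encodes the kinase found in most tissues. It had log2 expression of 12.15, 12.06 and 12.23 on the TG arrays, against 12.13, 12.08 and 12.10 on the WT arrays. The TG arrays held both the highest and the lowest value. The difference was 0.046 (SE 0.070, 95% interval -0.12 to 0.21), and it came to 0.0060 if TG array 3 was left out and to 0.088 if TG array 2 was. Pdk1, the isoform induced through HIF-1 in low oxygen, had 9.31, 9.25 and 9.35 on the TG arrays, against 9.35, 9.26 and 9.33 on the WT arrays. Its groups nearly coincided, with a difference of -0.0032 (95% interval -0.16 to 0.15) that turned to 0.016 with a common array median, and to 0.024, 0.015 and 0.0059 without TG array 2, WT array 1 or WT array 3.

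Pdk3, an X-linked kinase gene best known from testis and brain, had log2 expression of 5.10, 5.15 and 5.21 on the TG arrays, against 5.18, 5.05 and 5.01 on the WT arrays. Its difference was 0.073 (SE 0.074, 95% interval -0.098 to 0.25) and the groups overlapped. Its lowest and highest values with 1 array left out were 0.037 (WT array 3) and 0.12 (WT array 1), and it was 0.046 with TG array 3 left out. Its mean lay below the median over all genes, and signal over background could not be assessed from the deposited values, so how much of it is measured transcript is not known.

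**Figure D2:**
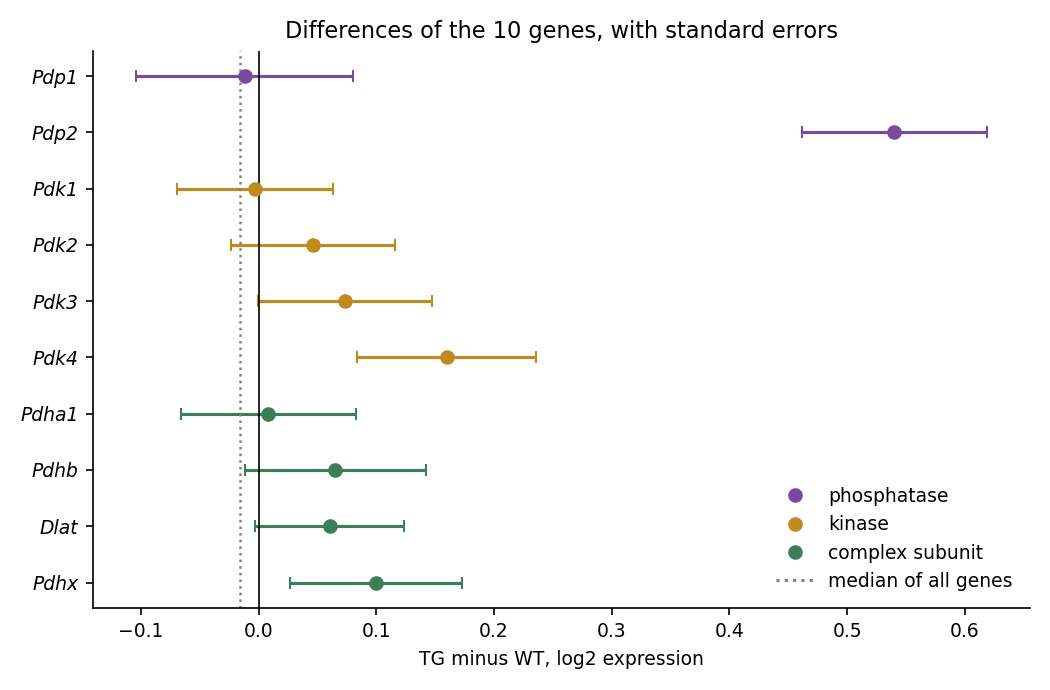
Difference in log2 expression, TG minus WT (horizontal axis), for each of the 10 genes, with bars of 1 standard error from limma and colours for phosphatases, kinases and complex subunits. Pdp2, at 0.54, stands to the right of Pdk4, at 0.16, and the other 8 genes lie between -0.012 and 0.10. The dotted line is the median of all genes, -0.016.

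All 4 subunits of the complex had differences above 0, from 0.0080 to 0.10, and each of their 95% intervals took in 0. Pdha1 and Pdhb encode the alpha and beta chains of E1, the thiamine-dependent dehydrogenase that the kinases phosphorylate. Pdha1 had log2 expression of 12.90, 13.03 and 12.96 on the TG arrays, against 12.97, 12.86 and 13.03 on the WT arrays. The difference was 0.0080 (95% interval -0.17 to 0.18), with wholly mixed values, and it was -0.025 without TG array 2 and -0.039 without WT array 2. Pdhb had 12.16, 12.33 and 12.15 on the TG arrays, against 12.17, 12.09 and 12.19 on the WT arrays. Its difference of 0.065 (95% interval -0.11 to 0.24) rested on TG array 2 and was 0.0043 without it.

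Dlat encodes E2, the acetyltransferase core of the complex. It had log2 expression of 11.95, 12.01 and 11.92 on the TG arrays, against 11.92, 11.87 and 11.91 on the WT arrays. All TG values were above all WT values, though by a margin of 0.00056, and the groups overlapped once arrays were set to a common median. The difference was 0.060 (SE 0.063, 95% interval -0.087 to 0.21), and 0.035 without TG array 2. Pdhx encodes the E3-binding protein, which anchors the dihydrolipoamide dehydrogenase Dld to the core. It had 10.18, 10.17 and 10.02 on the TG arrays, against 10.02, 9.98 and 10.06 on the WT arrays. TG arrays 1 and 2 were high and TG array 3 lay within the WT range, with a difference of 0.10 (SE 0.07, 95% interval -0.070 to 0.27) that was 0.15 without TG array 3.

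Counting Dlat, 3 of the 10 genes had every TG array above every WT array and 0 had every TG array below, where 4.52% of all genes lay above and 7.76% below. Since this contrast was known when the genes were chosen, nothing is read from the 3.

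Some orders over the arrays recurred. WT array 2 held the lowest value for 4 of 4 subunits, against 19.0% of all genes. All 10 genes lay below their own averages there, Pdk4 at only -0.0021, with the 4 kinases at -0.042 on average. The share of all genes below their own averages on that array was not computed. TG array 2 was highest for Pdhb and Dlat, and second highest by a narrow margin for Pdha1 and Pdhx. The mean deviation of the 4 subunits from their own averages was 0.010, 0.10 and -0.024 on TG arrays 1 to 3, against -0.014, -0.085 and 0.012 on WT arrays 1 to 3. TG array 3 was highest for Pdk1, Pdk2, Pdk3 and Pdp1, and for 16.6% of all genes. TG array 2, where the subunits were high, was lowest for Pdk1, Pdk2 and Pdp1, and for 17.9% of all genes. These orders were seen after the values were known and rest on 6 arrays, so they are a description.

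**Figure D3:**
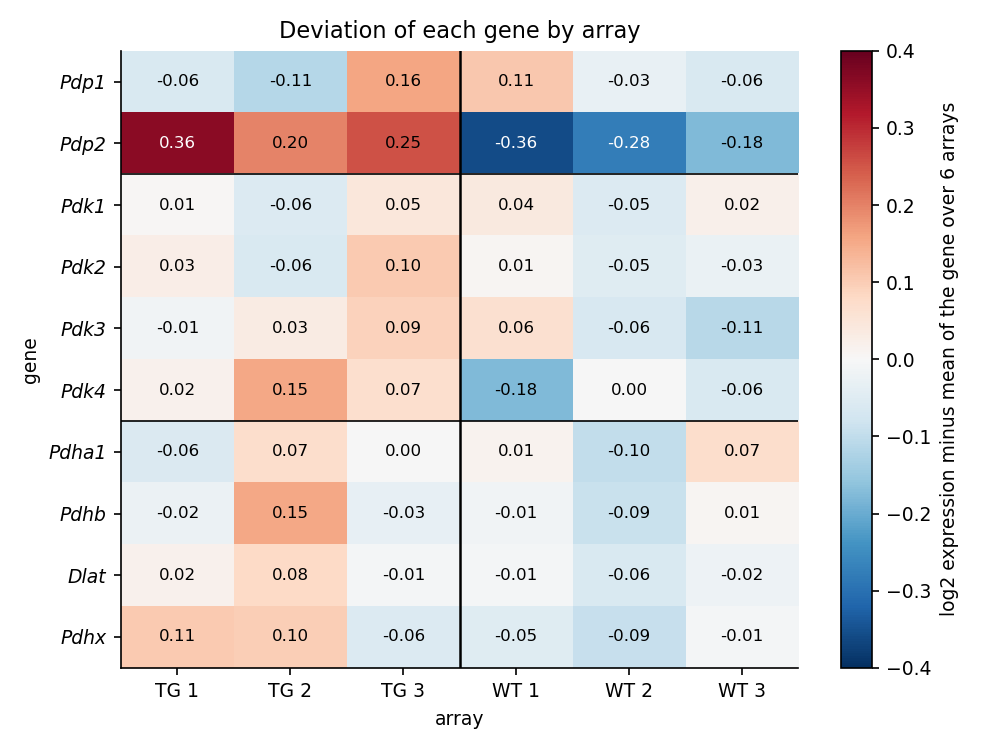
Log2 expression of each gene minus its mean over the 6 arrays, with genes in rows (phosphatases, kinases, subunits from top to bottom) and arrays in columns, TG left of WT. Pdp2 runs from 0.36 on TG array 1 to -0.36 on WT array 1, all 10 genes are below 0 on WT array 2, and Pdp1, Pdk1 and Pdk2 are low on TG array 2.

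TG arrays 2 and 3 also differed in transcripts of other tissues. The summed level of 7 hepatocyte markers, as log2 of the sum, was 10.05, 11.69 and 8.69 on TG arrays 1 to 3, against 10.38, 10.96 and 11.31 on WT arrays 1 to 3. It was thus highest on TG array 2 and lowest on TG array 3. Of the 7 markers, 0 were above 0, with a median log2 difference of -0.70, and each overlapped between groups. The part of these transcripts in the values of the pyruvate dehydrogenase genes was not tested. The sum of 7 adipocyte markers was 11.15 to 11.31 in TG muscle and 11.02 to 11.17 in WT, with 6 of 7 markers above 0. Most of the sum was Fabp4, with means of 10.99 in TG muscle and 10.90 in WT muscle, which overlapped between groups. Adipoq, the fat cell hormone adiponectin, was at 5.93 ± 0.16 in TG muscle and 5.29 ± 0.05 in WT muscle (SD, n = 3 each). Adipoq, like Pdp2, did not overlap between groups, and the part of fat cells in the Pdp2 and Pdk4 values was not tested. Macrophage markers summed to 10.38 to 10.73 in TG muscle and 10.16 to 10.66 in WT, with 9 of 9 above 0. Among them Itgam, an integrin chain of myeloid cells, was at 0.57 (SE 0.10), with means of 5.64 in TG muscle and 5.06 in WT muscle. Itgam was higher on every TG array, as no other of the 9 was. The part of these myeloid cells in the Pdp2 value was not tested either. Sums for endothelial markers were 11.33 to 11.40 in TG muscle and 11.34 to 11.54 in WT, with 1 of 6 above 0, and those for fibroblast markers were 13.26 to 13.50 in TG muscle and 13.21 to 13.33 in WT, with 5 of 6 above 0. In whole muscle, fewer cells of a type and less RNA per cell cannot be told apart.

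The labelled tissue was borne out by its defining genes. The sum of 12 muscle fibre genes was 17.39 to 17.42 in TG muscle and 17.40 to 17.42 in WT, and Ckm, the muscle creatine kinase, was at 14.51 ± 0.03 in TG muscle and 14.52 ± 0.01 in WT muscle (SD, n = 3 each). Fibre type bears on pyruvate dehydrogenase, which is more plentiful in oxidative fibres. Myh2, the myosin of fast oxidative fibres, had a log2 difference of -0.30 (SE 0.14) and Tnnt1, the slow troponin T, of -0.21 (SE 0.08), both lower on every TG array. Without WT array 3 the Myh2 difference was -0.12. Myh1, a fast myosin, was at 0.060 and higher on every TG array, and the slow myosin Myh7 and myoglobin, Mb, overlapped between groups, at -0.030 and -0.012. Neither Myh2 nor Tnnt1 passed over all genes (limma, adjusted p = 0.755 and 0.738), and their part in the values above was not tested.

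Other genes of the complex and its control were a mixed list of 8, holding Dld, the lipoylation genes Lias, Lipt1 and Lipt2, the E1 alpha gene Pdha2 of testis, the phosphatase regulatory subunit gene Pdpr and the mitochondrial sirtuins Sirt3 and Sirt4. Of the 8, 0 passed over all genes (limma, smallest adjusted p = 0.792), with 0 at an unadjusted p under 0.05. Values lay above 0 for 6 of them, with a median of 0.042 that ranged from 0.039 to 0.084 as 1 array was left out. Lias, the lipoic acid synthase that supplies the swinging arm of Dlat, was at 9.72 ± 0.02 in TG muscle and 9.60 ± 0.09 in WT muscle (SD, n = 3 each), and differed by 0.12 (SE 0.07). Dld, the shared E3 subunit, differed by 0.12 (SE 0.09) and Lipt1, a lipoyl transferase, by 0.12 (SE 0.08). Of the thiamine genes, Slc19a2, a thiamine transporter, differed by 0.10 and Thtpa, a thiamine triphosphatase, by -0.014, and neither passed.

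A list of the sister complexes held genes of oxoglutarate dehydrogenase, and of branched-chain ketoacid dehydrogenase with its kinase and phosphatase. Values lay above 0 in 7 of its 9 genes, with a median of 0.028 (0.0060 to 0.083 as 1 array was left out). None of the 9 passed (limma, smallest adjusted p = 0.719), and 1 was at an unadjusted p under 0.05. That gene was Ogdhl, a homologue of oxoglutarate dehydrogenase, at -0.28 (SE 0.10) and lower on every TG array. Dhtkd1, another gene of the list, was lower on every TG array as well, at -0.052 (SE 0.063). Dbt, the branched-chain counterpart of Dlat, was at 0.13 and Bckdha, that of Pdha1, at 0.086 with every TG array above every WT array.

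Genes that bring pyruvate in or send it elsewhere had 3 of 15 above 0 and a median of -0.031, and 0 passed (limma, smallest adjusted p = 0.798), with 0 at an unadjusted p under 0.05. Slc16a1, the lactate and pyruvate transporter MCT1, was at 10.47 ± 0.21 in TG muscle and 10.29 ± 0.16 in WT muscle (SD, n = 3 each), a difference of 0.19 (SE 0.12) that came to 0.072 if TG array 2 was left out and to 0.10 if WT array 2 was. Ldha, the lactate dehydrogenase subunit of fast muscle, differed by -0.090 and Pck2, mitochondrial phosphoenolpyruvate carboxykinase, by -0.14. Among 7 genes that use or move acetyl groups, 2 were above 0, with a median of -0.037, 0 passed (limma, smallest adjusted p = 0.713) and 1, the carnitine carrier gene Slc25a20, was at an unadjusted p under 0.05. The citrate carrier gene Slc25a1 differed by -0.21 (SE 0.13), or -0.075 without TG array 1, and Acss1, a mitochondrial acetyl-CoA synthetase, by -0.11, which became -0.27 when TG array 3 was left out and -0.037 or -0.033 for TG arrays 1 or 2.

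Regulators known to act on Pdk genes had 7 of 15 above 0 and a median of -0.018, which took either sign (-0.026 to 0.047) as 1 array was left out. None passed (limma, smallest adjusted p = 0.676), and 2 were at an unadjusted p under 0.05, Nr4a1 and Hif1a. Nr4a1, an orphan nuclear receptor induced by exercise, differed by -0.44 (SE 0.13) and was lower on every TG array. The receptor gene Nr4a3 went the other way, at 0.59 (SE 0.31), with the groups overlapping. Hif1a, the oxygen-regulated factor that acts on Pdk1, differed by 0.18 (SE 0.07), with 8.33 ± 0.05 in TG muscle and 8.15 ± 0.10 in WT muscle (SD, n = 3 each). The coactivator gene Ppargc1a had log2 expression of 9.50, 10.41 and 9.50 on TG arrays 1 to 3, against 9.15, 9.34 and 9.55 on WT arrays 1 to 3. It was highest on TG array 2, and its difference of 0.46 (SE 0.24) was 0.16 without that array. Pdk4, Pdhb and Dlat were highest there too, which is 3 of the 10 members, against 15.4% of all genes. Pdk1, Pdk2 and Pdp1 were lowest there, as were 17.9% of all genes, and the part of Ppargc1a in the values of the members was not tested.

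Fasting-induced muscle genes that share PPAR or FOXO control with Pdk4 had 9 of 14 above 0 and a median of 0.026, which was -0.0042 at the lowest and 0.14 without WT array 2 when arrays were left out in turn. None passed (limma, smallest adjusted p = 0.713), and 2 were at an unadjusted p under 0.05, Ucp3 and Slc25a20. The uncoupling protein gene Ucp3 was at 11.68 ± 0.05 in TG muscle and 11.46 ± 0.09 in WT muscle (SD, n = 3 each) and Slc25a20 at 11.50 ± 0.03 in TG muscle and 11.32 ± 0.05 in WT muscle (SD, n = 3 each). Both had every TG array above every WT array, where 4.52% of all genes did. Lpl, lipoprotein lipase, had every TG array below every WT array, at -0.14 (SE 0.07), where 7.76% of all genes did. The other genes of the list overlapped between groups. Angptl4, an inhibitor of lipoprotein lipase, differed by 0.27 (SE 0.13).

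**Figure D4:**
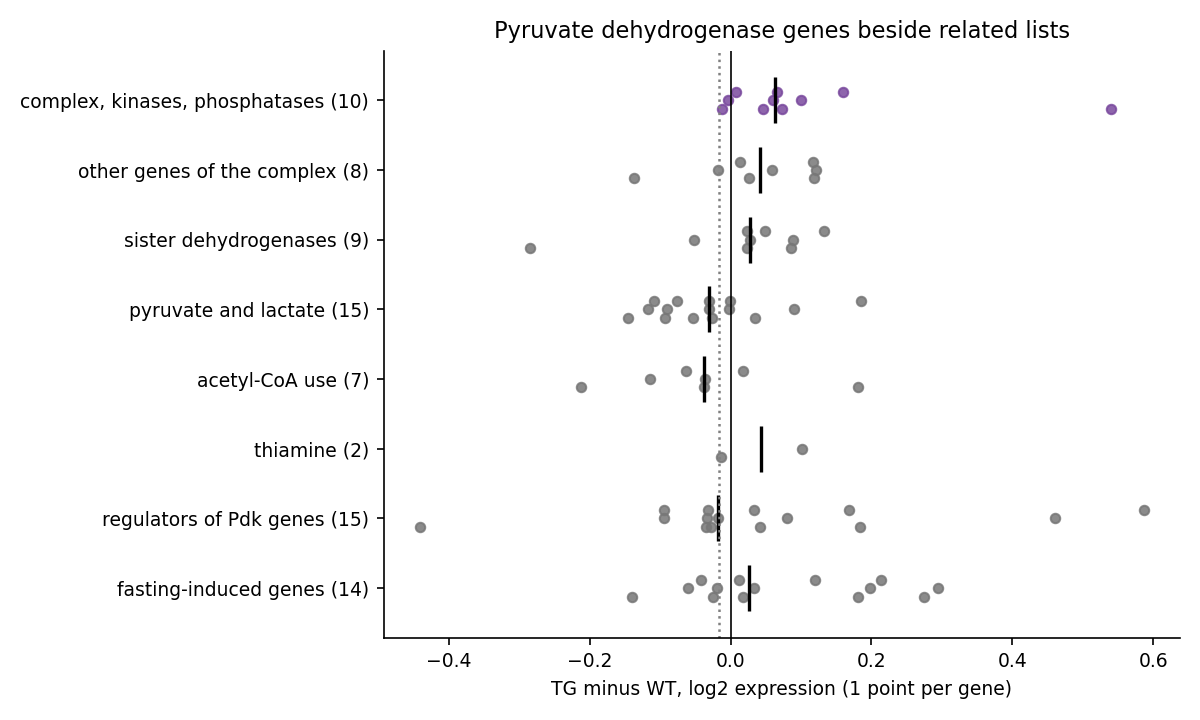
Difference in log2 expression, TG minus WT (horizontal axis), with 1 point per gene, a black bar at each list's median and the number of genes measured in brackets. The 10 pyruvate dehydrogenase genes, in colour in the top row, have a median of 0.063, and the medians of the 7 related lists lie between -0.037 and 0.044. Leaving out 1 array moved these medians to between -0.060 and 0.14, and that of the 10 genes to between 0.041 and 0.073. The dotted line is the median of all genes, -0.016.

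The genes with profiles closest to Pdp2 over the 6 arrays, by the root mean square difference of gene-centred log2 values, were Raver2 (0.081), Actr6 (0.082) and Chpt1 (0.082), where Pdp2 itself deviated from its mean by 0.28. Raver2, a ribonucleoprotein gene, was at 7.85 ± 0.03 in TG muscle and 7.40 ± 0.15 in WT, and Chpt1, a choline phosphotransferase gene, at 11.19 ± 0.12 in TG muscle and 10.69 ± 0.05 in WT muscle (SD, n = 3 each). Raver2 is on chromosome 4 and Actr6 and Chpt1 are both on chromosome 10, whereas Pdp2 is on chromosome 8. The TG minus WT differences of Raver2, Actr6 and Chpt1 were 0.45, 0.48 and 0.50. Their likeness thus takes in the group difference for which Pdp2 was chosen, and nothing is read from it. Closest to Pdk4 were Mir434 (0.018), Zfp982 (0.019) and the autophagy gene Map1lc3a (0.021), where Pdk4 deviated from its mean by 0.10. The first 2 have mean values of 2.96 to 4.12, below the median array value, and their signal over background was not assessed.

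The 10 genes lie on 8 chromosomes, with Pdk1 and Pdhx on chromosome 2 and Pdk3 and Pdha1 on the X chromosome, and Pdp2 and Pdk4 share theirs with no other member. Of the 5 tested genes on each side of Pdp2, 4 of 10 were above 0, with a median of -0.012 and 0 with every TG array above every WT array. Car7, the tested gene next to Pdp2 on one side, was at -0.30 (SE 0.12) and lower on every TG array, and Cdh16, on the other, was at -0.0066. Around Pdk4, 7 of 10 were above 0, with a median of 0.032. The adjacent Dync1i1, a dynein chain gene, was at -0.45 (SE 0.09) and lower on every TG array. Asb4, the tested gene on the other side of Pdk4, was at 0.076, with the groups overlapping. None of these 20 neighbours passed over all genes (limma, smallest adjusted p = 0.546), and 2 of them, Car7 and Dync1i1, were at an unadjusted p under 0.05.

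The promoters of Pdp2 and Pdk4 are shown because these are the members with the largest differences. The 250 bases before each start come from RefSeq on GRCm38.p6, whose promoter table held 9 of the 10 genes. Pdp2 is given as chr8:104591222-104591471 on the plus strand and Pdk4 as chr6:5496279-5496528 on the minus strand, 5′ to 3′. Capitals mark matches, on either strand, to the CCAAT box, the E-box CACGTG or the GC box GGGCGG.
Pdp2: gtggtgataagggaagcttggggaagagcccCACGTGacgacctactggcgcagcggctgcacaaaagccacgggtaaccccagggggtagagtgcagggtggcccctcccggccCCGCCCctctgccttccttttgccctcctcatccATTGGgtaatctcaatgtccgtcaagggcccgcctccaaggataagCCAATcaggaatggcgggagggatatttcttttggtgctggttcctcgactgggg
Pdk4: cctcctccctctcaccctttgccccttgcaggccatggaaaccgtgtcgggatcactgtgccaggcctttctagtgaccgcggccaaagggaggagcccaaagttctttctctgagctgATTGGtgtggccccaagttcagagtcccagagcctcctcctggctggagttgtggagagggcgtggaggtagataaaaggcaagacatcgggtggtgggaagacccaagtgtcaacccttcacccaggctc

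Pdp2 held 2 CCAAT matches, 101 and 55 bases before the start, 1 E-box at 219 and 1 GC box at 135, and Pdk4 held 1 CCAAT match at 131. Over the promoter windows of the members, CCAAT was found in 5 of 9 genes, GGGCGG in 6 and CACGTG in 2, Pdp2 and Pdk2, where 33.8%, 32.7% and 6.02% of all 32851 promoter windows of this length held them. Both strands were also searched for TATAAA, the nuclear receptor core motif AGGTCA, the forkhead motif GTAAACA and the STAT motif TTCNNNGAA, which 12.4%, 14.0%, 3.17% and 7.02% of all windows held. None of these 4 was found in the windows of the 9 genes. No match says only that these letters are absent from this window. The table gives some genes several starts, and a gene was counted where any of its windows held the motif. The 9 genes had 11 windows, while the percentages are of single windows, so members and all promoters are not counted alike.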

How the data were processed

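Per the labels' protocols, frozen muscle from 6 mice was homogenized in Trizol, and the RNA was cleaned on RNeasy columns and labelled with biotin. The authors deposited 1 table of log2 values with 35557 probe sets and 6 arrays; their log2 scale was inferred from their span (1.41 to 15.1), and background correction, summarization and normalization are not given in the sources used. Medians of the arrays spanned 0.057 and their interquartile ranges 0.062, so values were used as deposited. The labels name 1 common date and no other batch.

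Gene symbols came from the platform annotation: 21789 probe sets had 1 symbol, 1621 several and 12147 none. The probe set with the highest mean stood for a gene, giving 19938 genes, 999 of them with several probe sets; 19856 matched the reference table by gene identifier. Groups were compared with limma 3.58.1 in R 4.3.3 (lmFit, eBayes), two-sided, with Benjamini-Hochberg adjustment over all genes and 0.05 as the threshold. Each difference is TG minus WT in log2 units. Replicate numbers follow the deposit order and pair no animals. Of the steps, only the limma fit was tested on simulated data. Named genes are the 10 members, markers and the 3 genes of smallest p in each related list. The 3 most alike and the adjacent or non-overlapping neighbours of Pdp2 and Pdk4 are also named. Asb4, Casp12, Cdh16, Dhtkd1, Lpl, Nr4a3 and the marker genes were chosen after their values were seen. The members and lists were chosen with earlier results of these data known. Figures used matplotlib 3.10.9.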

Additional observations from a re-analysis of the deposited data

How the results depend on the processing

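Under 14 alternatives (an intensity trend, robust moderation, array weights, a restriction to genes above the median level, all probe sets tested singly, probe sets averaged within a gene, quantiles made equal, a common array median and each of the 6 arrays left out) 0 of the 10 pyruvate dehydrogenase genes passed the threshold. Adjusted p for Pdp2 ranged from 0.0965 among genes above the median level, where fewer genes were tested, to 0.893 when an array was left out. Pdp2, Pdk4, Pdk2, Pdk3, Pdhb, Dlat and Pdhx kept their sign throughout, Pdk3 in the 13 settings that tested it. With a common array median, which moved the median of all genes from -0.016 to 0.0035, Pdk1 turned to 0.016, Pdp1 to 0.0074 and Thtpa to 0.0054 and Mb to 0.0077, so that 10 of 10 members were above 0. Leaving out 1 array gave 7 to 10 members above 0. It gave differences of -0.031 to 0.024 for Pdk1, -0.094 to 0.042 for Pdp1, -0.039 to 0.045 for Pdha1, -0.071 to 0.035 for Thtpa, -0.060 to 0.051 for Mb and -0.11 to 0.040 for Myh7, each turning sign. The count over all genes, 1, was 7 with an intensity trend, 2 among genes above the median level and 0 with robust moderation, every probe set, a common array median or any 1 array left out. Chpt1 passed with the trend (limma, adjusted p = 0.0400). The causes were not tested. No paired analysis was possible because the labels give no replicate numbers. Without raw intensities, signal over background was not assessed for any gene, among them Pdk3, Adipoq, Itgam, Mir434 and Zfp982, whose means lie below the array medians.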
